A study of Drosophila melanogaster with 2 samples.

Results

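Odorant (Or), gustatory (Gr) and ionotropic (Ir) receptor genes were examined for peaks of the GFP-tagged lms protein in whole Drosophila melanogaster embryos. Members were taken by symbol from the Ensembl annotation: every protein-coding gene whose symbol is Or, Gr or Ir followed by digits and letters, together with Orco. This gave 180 of 13968 protein-coding genes, 60 in each family, and 7 further receptor loci annotated as pseudogenes were kept apart. The series held 1 group of 2 biological replicates and no untagged or other comparison group. Each replicate was chromatin of pooled male and female embryos, 6 to 18 hours old by the source name, from a transgenic line that stably expresses lms (CG13424), a homeodomain protein of lateral muscles, with GFP at its C terminus. Chromatin was sheared by sonication and precipitated with an antibody to GFP. Peaks were deposited as a list for each replicate (30000 peaks each), a list called on both replicates together (30000, the pooled list) and the 7521 peaks that passed the irreproducible discovery rate procedure (the IDR list). A tag on a transgene and whole embryos as the source limit the data: the number of cells that expressed the fusion was not measured here. No source used here gives the read depth, and no interval from counts of reads was calculated. Replicates are biological by their labels.

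Insects detect volatile and soluble chemicals with these 3 families of membrane proteins. Odorant receptors are ligand-gated cation channels built from a tuning receptor and the shared co-receptor Orco. Gustatory receptors sense sugars, bitter compounds and, in the antenna, carbon dioxide. Ionotropic receptors descend from ionotropic glutamate receptors, and most need a co-receptor (Ir8a, Ir25a or Ir76b). Each is typically used by few sensory neurons, many of which form after embryogenesis.

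Few receptor genes carried an IDR summit, the position of highest signal in an IDR peak. A summit lay in the gene or in the 2 kb upstream, together called the window, in 12 of the 180 receptor genes (6.67%), against 40.0% of all protein-coding genes. Among the families the count was 4 of 60 Or genes, 6 of 60 Gr genes and 2 of 60 Ir genes. All 12 genes had their summits upstream. No receptor gene had an IDR summit inside its transcribed span, compared with 16.0% of all protein-coding genes. Gr63a, a subunit of the carbon dioxide receptor, was the 1 member with a summit within 500 bp of its own start site, against 28.8% of all protein-coding genes. That summit was also at the promoter of a neighbour, so 0 of 180 receptor genes had a summit within 500 bp of their own start site and of no other gene's, against 11.9% of all protein-coding genes. Taken over the merged windows, there were 1.58 IDR summits per 100 kb of receptor windows (760 kb) and 6.52 per 100 kb of the windows of all protein-coding genes. These are counts over genes from 1 group of embryos, described beside the background and not tested.

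**Figure D1:**
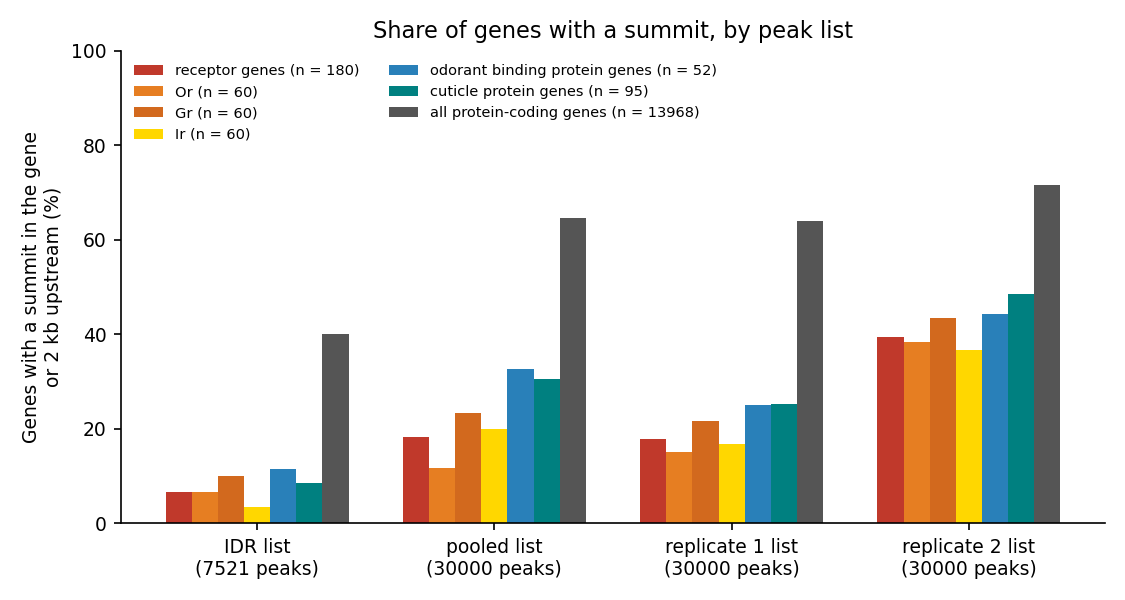
Percentage of genes (y axis) with a summit in the gene or 2 kb upstream, in each of the 4 deposited peak lists (x axis), for all receptor genes, each family, 2 other gene families and all protein-coding genes. Each bar is 1 count over genes, with no error. Receptor genes reach 6.67% in the IDR list and 39.4% in the replicate 2 list, against 40.0% and 71.6% of all protein-coding genes.

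The 12 genes were reached by 12 distinct summits: Orco held 2, and the neighbours Gr10a and Or10a, annotated with the same start and end, shared 1. Of these summits, 7 lay within 500 bp of a start site of a gene that is no receptor (58.3%), 1 of them (that of Gr63a) also within 500 bp of the receptor gene's own. The other 5 were farther than 500 bp from both kinds of start site. Counted by gene and summit, 0 of 13 receptor pairs were at the gene's own start site alone and 6 of 13 at another gene's alone (46.2%). Among 9402 such pairs of all protein-coding genes the same classes held 19.9% and 12.7%. A further 1 of 13 receptor pairs (7.69%) was at both kinds of start site, against 29.0%. At neither were 6 of 13 (46.2%), against 38.4%. In the background another gene is any gene but the gene itself, while for receptor pairs it is no receptor. In 8 of the 12 the summit lay in the gap between the receptor gene and a neighbour transcribed in the opposite direction, upstream of both. The start sites on either side of these gaps were 297 to 5410 bp apart. In 3 it lay inside another protein-coding gene (CG42390, CG5521 and Tre1). The remaining summit, upstream of Ir76b, lay beyond the start site of CG14187, a neighbour on the same strand. These placements were not counted over all protein-coding genes, so it is not known whether they are unusual.

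**Figure D2:**
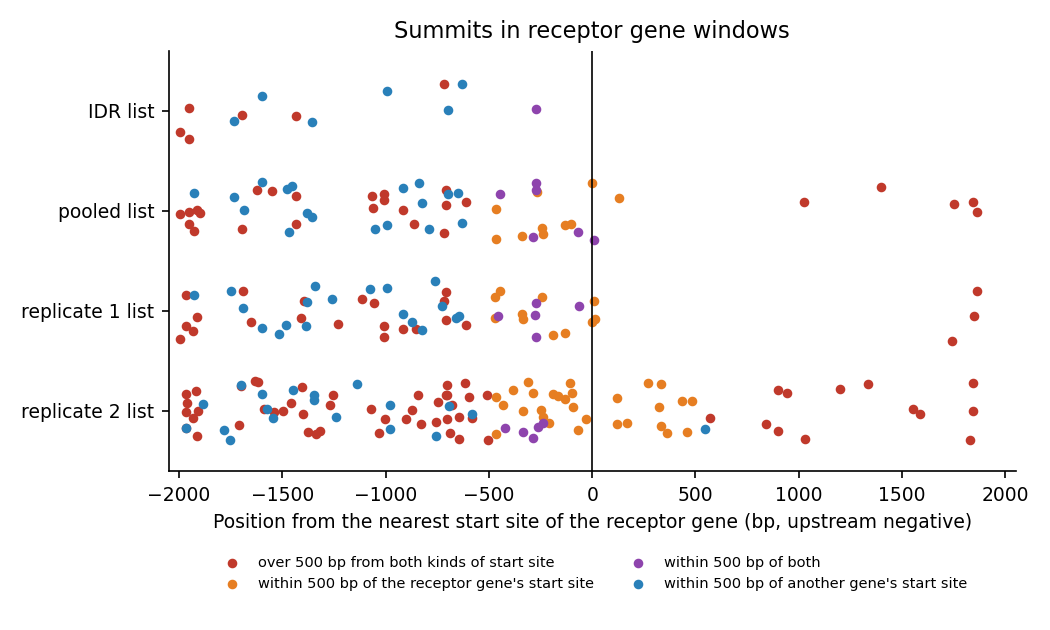
Position of each summit from the nearest start site of the receptor gene whose window holds it (x axis, bp, upstream negative), in the 4 peak lists (rows), coloured by the start sites within 500 bp; vertical scatter within a row carries no value and summits over 2 kb inside a gene are not drawn. In the IDR list all 13 points lie upstream, the closest at -270 bp, while the other 3 lists also have points inside genes.

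Among odorant receptor genes, Orco, the co-receptor of the whole family, held 2 IDR summits in the 2121 bp that separate it from the divergent gene CG14669. The summit nearer to Orco lay at chr3R:5412951-5413159, 715 bp upstream of Orco and 1406 bp upstream of CG14669, and ranked 2988 of 7521 by signal. It ranked 3348 in the replicate 1 list and 2313 in the replicate 2 list. The other, at chr3R:5413936-5414345, was 386 bp from the start site of CG14669 and 1735 bp from that of Orco. Near the end of the IDR list at rank 7176, it ranked 6995 in replicate 1 and 9674 in replicate 2. Replicate 2 thus placed the Orco-side peak far above the CG14669-side peak, as replicate 1 did. The bases from 50 bp before to 50 bp after both summits are shown because these are the peaks nearest to a gene that odorant receptor neurons share. All sequences are the plus strand of the RefSeq release 6 assembly, in dm6 coordinates, and capitals mark the 11 central bases unless a motif is named.
Orco, 715 bp upstream, chr3R:5413071-5413171: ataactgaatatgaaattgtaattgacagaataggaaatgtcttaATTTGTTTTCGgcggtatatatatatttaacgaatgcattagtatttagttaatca
Orco, 1735 bp upstream, chr3R:5414091-5414191: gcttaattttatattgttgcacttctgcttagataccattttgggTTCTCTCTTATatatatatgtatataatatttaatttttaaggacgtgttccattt
GC content within 25 bp of the summit was 27.5% for the Orco-side peak and 23.5% for the other. The longest run of A and T alone was 15 bases in the Orco-side window and 21 bases in the other. Neither window held TAATTA, the core that many homeodomains bind, on either strand.

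Or88a, a receptor of antennal neurons that respond to fly odours, had the highest peak of any Or gene, at rank 1176 (chr3R:14108531-14109048). It ranked 1025 in replicate 1, with a signal of 620, and 2167 in replicate 2, with a signal of 82.8. Its summit was 631 bp upstream of Or88a and 493 bp upstream of the divergent gene CG12402, just inside the 500 bp limit. Or9a had a peak of rank 4089 (chrX:10460567-10460771), whose summit lay 991 bp from the Or9a start site and 69 bp from that of the divergent gene Neb-cGP. It ranked 4411 in replicate 1 and 3385 in replicate 2. Or10a, which encodes a receptor for methyl salicylate, and Gr10a shared a summit 1954 bp upstream (chrX:11419295-11419493), at rank 5429. It ranked 5202 in replicate 1 and 6445 in replicate 2. No start site of another gene was close to it; the nearest was that of Gs2, which encodes a glutamine synthetase, 3456 bp away. The windows of Or88a and Or9a are shown as the strongest Or peak and as the Or peak closest to a neighbour's start site. In that of Or88a, capitals mark TAATTA, the only match to it among the 12 windows.
Or88a, chr3R:14108764-14108864: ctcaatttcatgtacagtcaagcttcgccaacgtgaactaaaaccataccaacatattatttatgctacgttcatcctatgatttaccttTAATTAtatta
Or9a, chrX:10460617-10460717: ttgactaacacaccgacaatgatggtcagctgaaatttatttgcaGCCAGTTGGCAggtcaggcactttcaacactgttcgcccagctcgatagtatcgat
TAATTA lay toward the edge of the Or88a window and not at the summit. At Or9a the GC content was 45.1% within 25 bp of the summit, above the median of 29.4% over all IDR summits.

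Larval odorant receptors had no IDR summit. In 23 Or genes used by larval olfactory neurons, which form during embryogenesis, the count was 0 in the IDR list, against 40.0% of all protein-coding genes, 1 in the pooled list, against 64.6%, and 1 in the replicate 1 list, against 63.9%. The gene with the pooled summits was Or45b, with 2. In the replicate 2 list 12 of the 23 had a summit, against 71.6% of all protein-coding genes.

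Gr32a, a receptor of bitter taste neurons that also acts in male courtship, had the highest peak of any receptor gene, at rank 1137 of the IDR list (chr2L:11113084-11113477). It ranked 1151 in replicate 1 with a signal of 571, and 1256 in replicate 2 with a signal of 126, on scales that differ between the lists. Its summit was 697 bp upstream of Gr32a and 256 bp upstream of the divergent gene Idua, which encodes a lysosomal iduronidase. The window is shown as the strongest receptor peak.
Gr32a, chr2L:11113267-11113367: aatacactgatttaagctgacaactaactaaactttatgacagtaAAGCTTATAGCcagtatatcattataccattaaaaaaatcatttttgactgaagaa
Of 6 names listed as broad bitter receptors, 5 matched an annotated gene. Among these 5, 1 (Gr32a) had an IDR summit in its window, against 40.0% of all protein-coding genes. A list of 5 genes gives only a coarse share. Gr66a, used by most bitter neurons, missed by 94 bp. Gr39b had a peak of rank 3122 (chr2L:21370926-21371162), with its summit 1356 bp upstream and 165 bp from the start site of the divergent gene CG8665. It ranked 3377 in replicate 1 and 2786 in replicate 2.

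Among the 9 sweet receptor genes only Gr5a, the trehalose receptor, had an IDR summit (11.1%), against 40.0% of all protein-coding genes. The peak (chrX:5679109-5679278) ranked 4636 in the IDR list, 4588 in replicate 1 and 4993 in replicate 2. It lay 1432 bp upstream of Gr5a, inside Tre1, a gene for a G protein-coupled receptor of migrating germ cells. Gr43a, a fructose receptor, and the cluster Gr64a to Gr64f had none. Gr97a had a summit 1696 bp upstream (chr3R:26968097-26968296, rank 3607), inside CG5521, with nearly equal ranks of 3612 in replicate 1 and 3581 in replicate 2.

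The carbon dioxide receptor is formed by Gr63a and Gr21a. Gr63a had an IDR summit 270 bp upstream (chr3L:3896668-3897077), near the end of the list at rank 7046, which ranked 6963 in replicate 1 and 9161 in replicate 2. Replicate 2 alone, limited to its 7521 highest peaks, would not have held it. The start sites of Gr63a and of the divergent gene Lamtor4, a component of the lysosomal Ragulator complex, are 297 bp apart, and the summit was 27 bp from that of Lamtor4. Its window is shown because it is the receptor gene peak nearest to a start site of either kind; capitals mark GGTCACAC, the core of the element bound by the core promoter factor M1BP, found in 0.851% of all 7521 IDR windows and in no other of the 12.
Gr63a, chr3L:3896823-3896923: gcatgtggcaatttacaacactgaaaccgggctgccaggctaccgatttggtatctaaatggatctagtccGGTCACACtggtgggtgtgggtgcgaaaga
With 52.9% GC within 25 bp of the summit, this window was the richest in G and C among the 12. Gr21a had no IDR summit, and its nearest was 38503 bp away. In the pooled list Gr21a had a weaker summit at rank 10906, within an exon and 238 bp from the closest of its start sites. The replicate lists placed it at rank 11614 in replicate 1 and 9065 in replicate 2.

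Of the 3 ionotropic co-receptors 1 had an IDR summit (33.3%), against 40.0% of all protein-coding genes. It was Ir76b, which acts in salt and amino acid taste. The peak (chr3L:20112926-20113335) ranked 5457 in the IDR list, 5351 in replicate 1 and 7569 in replicate 2. Its summit was 1597 bp upstream of Ir76b and 284 bp upstream of CG14187. The window is shown as the poorest in G and C of the 12, with 19.6% within 25 bp of the summit.
Ir76b, chr3L:20113081-20113181: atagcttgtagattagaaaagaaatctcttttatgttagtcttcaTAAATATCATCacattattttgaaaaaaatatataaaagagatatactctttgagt
Ir25a had a summit 1060 bp upstream that fell just below the IDR list, at rank 7662 of the pooled list. It ranked 8643 in replicate 1 and 7354 in replicate 2. Ir8a had no summit in any of the 4 lists. Ir94c, of a group of ionotropic receptors expressed in taste organs, had the other Ir peak. That peak (chr3R:22121318-22121574) ranked 2500 in the IDR list, 2557 in replicate 1 and 2567 in replicate 2, and its summit was 1993 bp upstream, inside CG42390 close to the edge of the window. Of the 17 antennal Ir genes listed, Ir76b was the only one with an IDR summit (5.88%), against 40.0% of all protein-coding genes. In the pooled list 6 of the 17 had one, against 64.6%.

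**Figure D3:**
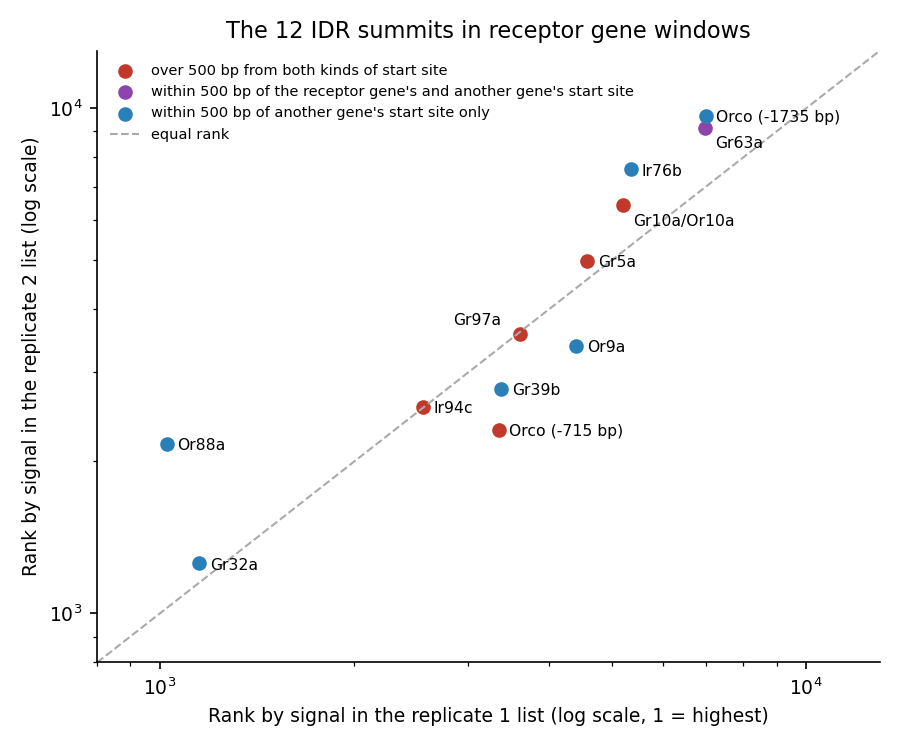
Rank by signal of each of the 12 IDR summits in receptor windows in the replicate 1 list (x axis) and the replicate 2 list (y axis), both on log scales with 1 as the highest peak; the dashed line marks equal rank. Summits run from rank 1025 to 6995 in replicate 1 and from 1256 to 9674 in replicate 2, and 8 of the 12 lie above the line, ranked lower in replicate 2, with Or88a (1025 in replicate 1 and 2167 in replicate 2) among them.

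Both replicates held all 12 summits. The nearest replicate 1 summit was 0 to 38 bp away and the nearest replicate 2 summit 1 to 66 bp away. In replicate 1 the median rank was 4012 and in replicate 2 it was 3483, of 30000 peaks each. Within the IDR list the ranks ran from 1137 to 7176 with a median of 3848 of 7521, so these peaks were spread through the list from the upper part to near its end. The IDR list was made from the replicate and pooled lists, and its 7521 peaks are the 7521 highest of the pooled list. Presence in both replicates is thus partly set by construction. The share of all IDR summits held by both replicates is not given here.

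Receptor genes were short. Their median length was 1692 bp, against 2165 bp for all protein-coding genes. In 55 of 180 a start site of a protein-coding gene that is no receptor lay in the window or within 500 bp of it. An IDR summit was present in 10 of these 55 (18.2%), and in 2 of the other 125 (1.60%). All protein-coding genes, divided instead by start sites of any other protein-coding gene, gave 47.1% and 23.6%. Start sites of other receptor genes thus did not count as neighbours of receptor genes, so the 2 divisions differ. Those 2 of the 125 were Gr10a and Or10a, which share a summit. Among receptor genes of up to 2 kb with no such neighbour, 0 of 89 had an IDR summit. Of 2036 protein-coding genes of up to 2 kb with no start site of any other protein-coding gene so near, 12.0% had one. In each length group the receptor share was below that of all protein-coding genes: 4.17% and 23.4% up to 1.5 kb, 9.09% and 35.1% from 1.5 to 2 kb, 0 of 30 and 38.7% from 2 to 3 kb, and 17.4% and 57.0% above 3 kb. How far neighbours and length account for the low count was not tested.

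**Figure D4:**
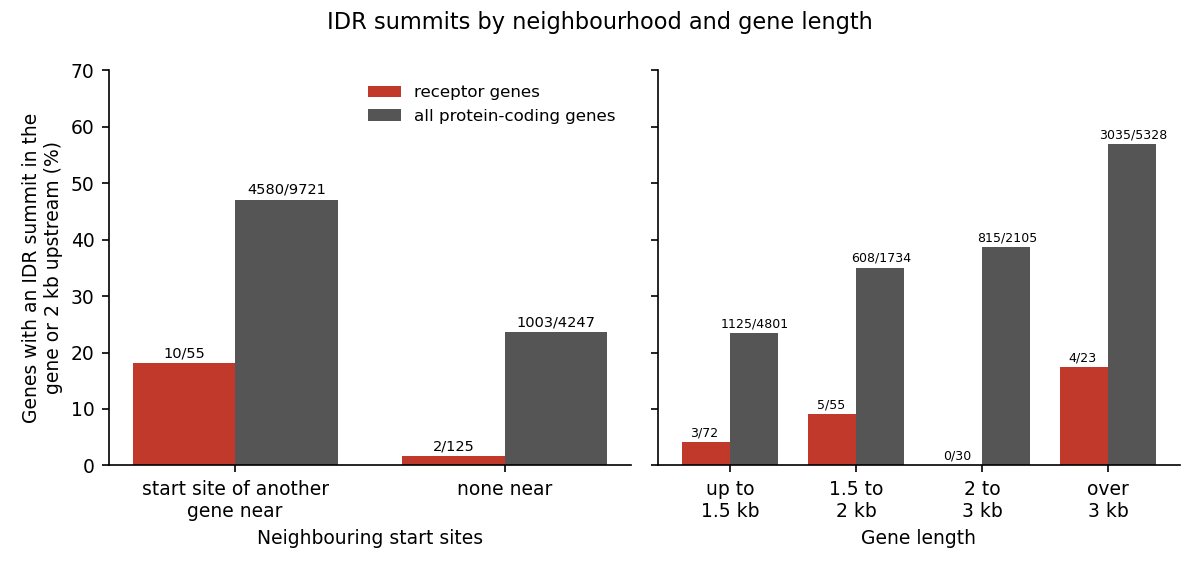
Percentage of genes whose window holds an IDR summit (y axis), by presence of another protein-coding gene's start site in or within 500 bp of the window (left) and by gene length (right); receptor genes are left of all protein-coding genes and counts stand above the bars. On the left, start sites of other receptor genes are not counted for receptor genes, while for all protein-coding genes those of any other protein-coding gene are. Receptor genes with no such neighbour show 2 of 125 and those with one 10 of 55, against 23.6% and 47.1% of all protein-coding genes.

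Many receptor genes have a start site annotated at the start codon. No 5′ UTR was annotated in 132 of 180 receptor genes (73.3%), against 3.77% of all protein-coding genes. The true start may then lie upstream of the annotated one, and distances to the own start site are those of the annotation. With the limit widened to 1 kb, 5 receptor genes had an IDR summit near their own start site, against 33.0% of all protein-coding genes.

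Outside the window, too, the nearest IDR summit was often far away. From a start site of the gene to the nearest IDR summit the median distance was 12166 bp for receptor genes (quartiles 5729 and 26485 bp) and 3779 bp for all protein-coding genes (quartiles 296 and 11650 bp). By family the medians were 19762 bp for Or, 10302 bp for Gr and 9401 bp for Ir genes. No IDR summit lay within 20 kb in 55 of 180 receptor genes (30.6%), against 15.1% of all protein-coding genes. Cuticle protein genes had a median of 14083 bp and no summit within 20 kb in 32.6%, both above the receptor values. For odorant binding protein genes the median was 8205 bp. Or42a, a receptor for fruit esters in larvae, was the farthest, at 181537 bp.

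**Figure D5:**
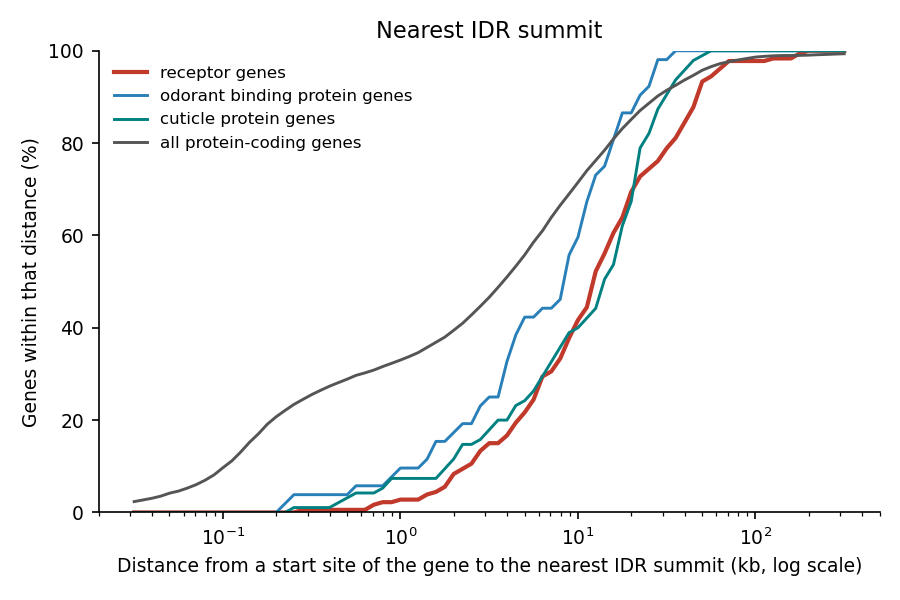
Cumulative percentage of genes (y axis) whose start site lies within a given distance of the nearest IDR summit (x axis, kb, log scale), for receptor genes, 2 other gene families and all protein-coding genes. The curve of receptor genes starts at 270 bp and its median is 12166 bp, against 14083 bp for cuticle protein genes, 8205 bp for odorant binding protein genes and 3779 bp for all protein-coding genes.

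Some receptor genes had an IDR summit just outside the window. The closest were those of Gr66a, Gr93a and Ir31a, 94, 110 and 115 bp beyond it, that of Ir31a past the 3′ end. Others followed, from 205 bp at Gr89a to 610 bp at Gr47b and farther. The summits of Ir94c, Gr10a and Or10a, at 1993 and 1954 bp upstream, were just inside. By chromosome, 4 of 25 receptor genes on X had an IDR summit, 4 of 43 on 3R, 2 of 35 on 3L, 2 of 31 on 2L and 0 of 46 on 2R. Over all protein-coding genes the share was 42.6% on X, 41.5% on 3R, 40.5% on 3L, 38.3% on 2L and 37.7% on 2R. Of the 4 on X, Gr10a and Or10a share 1 summit.

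Many receptor genes stand in tandem. Joined where the next member began within 10 kb, 84 of the 180 fell into 29 arrays. An IDR summit lay in the window of 4 of these 84 genes and of 8 of the 96 others, against 40.0% of all protein-coding genes. Arrays of other genes were not counted. Between its outer ends, without the upstream windows that reach beyond them, only 1 array had an IDR summit. That was the array of Gr93a to Gr93d on 3R, whose 14.2 kb held 4, all in the gap between Gr93a and Gr93b and none in a member's window. These ranked between 2912 and 5038. The arrays of Gr64a to Gr64f (10.8 kb), Ir7b to Ir7g (22.0 kb) and Gr22a to Gr22e (10.9 kb), the largest, had none. In the pooled list the Gr93 array was again the only 1 of 29 with a summit inside, and in the replicate 2 list 14 arrays had one. Of the 180 receptor genes, 25 lay inside a larger protein-coding gene of another kind. None of these 25 had an IDR summit in its window, against 6.67% of all receptor genes. Of their 24 host genes 16 had at least 1 in theirs. The share was 40.0% over all protein-coding genes and 57.0% over those above 3 kb. Whether nesting matters was not tested. Windows in an array can overlap, so the genes of an array are not independent observations.

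Weaker peaks reached more receptor genes, and far more so in replicate 2. In the pooled list 33 of 180 receptor genes had a summit (18.3%), against 64.6% of all protein-coding genes. The replicate 1 list gave 32 (17.8%), against 63.9%. The replicate 2 list gave 71 (39.4%), against 71.6%. No limit on −log10 q, a deposited score of peak significance, was set for these counts. Among receptor summits it was below 1 from rank 14745 on in replicate 2. In replicate 1 it was below 1 from rank 23851 on. Limited to the 7521 highest peaks of each replicate, the counts were 12 in replicate 1 and 13 in replicate 2, against 39.5% and 41.4% of all protein-coding genes. In the 3760 highest IDR peaks 6 receptor genes had a summit, against 25.6%. The 2 replicates thus had nearly equal counts among strong peaks and diverged below. Both replicate lists held a summit in 27 receptor genes, replicate 2 alone in 44 and replicate 1 alone in 5. For all protein-coding genes the same 3 classes held 58.0%, 13.7% and 5.93%. The 44 were 15 Or, 15 Gr and 14 Ir genes.

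Summits inside receptor genes and at their start sites were also most frequent in the replicate 2 list. Inside the gene, the pooled list had a summit in 10 receptor genes (5.56%), against 34.2% of all protein-coding genes, the replicate 1 list in 7 (3.89%), against 34.5%, and the replicate 2 list in 29 (16.1%), against 39.9%. Within 500 bp of their own start site, 13 had one in the pooled list (7.22%), against 53.4%, 14 in replicate 1 (7.78%), against 53.4%, and 30 in replicate 2 (16.7%), against 52.5%. With no other gene's start site as near, the counts were 6 in the pooled list, against 29.9%, 8 in replicate 1, against 30.1%, and 23 in replicate 2 (12.8%), against 28.9%. In all 3 measures the receptor share stayed below that of all protein-coding genes.

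Most replicate 2 summits in receptor windows had no partner in replicate 1. Of the 107 replicate 2 summits in receptor windows, 28 had a replicate 1 summit within 150 bp (26.2%), compared with 49.3% of all replicate 2 summits. Of the 55 replicate 1 summits in receptor windows, 27 had a partner in replicate 2 (49.1%), compared with 49.7% of all replicate 1 summits. Below rank 7521 the shares were 18.1% of 94 receptor summits and 35.0% of all summits of replicate 2. The median rank of the receptor summits of replicate 2 was 19723 of 30000, where −log10 q was 0.583. For those of replicate 1 the median rank was 15371, where −log10 q was 2.83. Of the 107 replicate 2 summits 32 lay inside a receptor gene (21 in exons, 11 in introns) and 25 within 500 bp of another gene's start site (23.4%). In replicate 1, 7 of 55 were inside a receptor gene and 24 at another gene's start site (43.6%). These placements were not counted over all summits of the 2 lists. It is thus not known whether the difference between replicates is particular to receptor windows. GC content within 25 bp of the receptor summits had a median of 41.2% in replicate 2 and 37.3% in replicate 1. Over all summits of the same lists it was 39.2% and 37.3%. Why replicate 2 has more weak peaks in these genes was not tested.

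Near their own start sites 8 receptor genes had a summit in both replicate lists, with the summits within 150 bp of each other (4.44%), against 40.7% of all protein-coding genes. Besides Gr63a and Gr21a these were Gr10a and Or10a (1 shared summit, 469 bp upstream in replicate 1), Gr77a, Gr93a, Ir60e and Ir67c, the last 4 named after their values were seen. Of these only the peak of Gr63a was in the IDR list. The others ranked from 11614 to 27021 in replicate 1 and from 7725 to 16027 in replicate 2. At the Ir60e peak, as at that of Gr63a, the start site of another gene (CG13585) was nearer, at 43 bp. Neither replicate list had a summit in the window of 104 receptor genes (57.8%), against 22.4% of all protein-coding genes. In 103 receptor genes no list had a summit in the window, a count not made over all protein-coding genes.

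The sequence at the 12 IDR summits was rich in A and T like that of IDR summits at large. Median GC content within 25 bp was 28.4% over the 12 and 29.4% over all 7521. Over the genome it was 42.1%, and the median receptor window, at 43.1%, was close to the 44.1% of all protein-coding windows. Motifs were searched on both strands, from 50 bp before to 50 bp after the summit. TAATTA was in 1 of the 12 windows, against 11.3% of all 7521, and TATCGATA, the element of the promoter factor DREF, in 0, against 1.58%. The 12 windows give only a coarse share, and a window without a match says nothing about what bound there.

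Other chemosensory and tissue-specific families were also low. Of 52 odorant binding protein genes 6 had an IDR summit in the window (11.5%), and of 95 cuticle protein genes of the Cpr and Tweedle families 8 (8.42%), against 40.0% of all protein-coding genes. None of the odorant binding protein genes and 1 of the cuticle protein genes had one inside the gene. In the replicate 2 list 44.2% and 48.4% of these genes had a summit, against 25.0% and 25.3% in the replicate 1 list. Over all protein-coding genes the share was 71.6% in the replicate 2 list and 63.9% in the replicate 1 list. Replicate 2 thus had the higher share in receptor genes, in these families and over all protein-coding genes. The difference between receptor genes and either family was not tested.

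Of 19 transcription factor genes that specify chemosensory neurons or control their receptors, 7 had an IDR summit in the window (36.8%), a share near the 40.0% of all protein-coding genes. The highest was at Xbp1, a factor of the unfolded protein response, at rank 520 and 106 bp upstream of its start site. It ranked 540 in replicate 1 and 501 in replicate 2. sim had a peak of rank 1606, 4166 bp upstream of the nearest start site and within the gene. acj6, a POU factor needed for the choice of odorant receptors, had 2 summits, the higher at rank 3931 and 14355 bp inside the gene. mip130, of the Myb-MuvB complex that limits carbon dioxide receptor genes to their neurons, had one at rank 4920, 368 bp from its start site and 108 bp from that of Edem1. Of 14 genes for transport and transduction channels 3 had a summit (21.4%), against the same 40.0%. These were Amt, an ammonium transporter of the antenna (rank 1768), ppk29, a channel of pheromone taste (4194), and krz, a nonvisual arrestin (7285). The ppk29 peak was 29 bp from the start site of eEF5 and the krz peak 154 bp from that of mod. Several of these regulators are long genes, such as acj6 with 28826 bp; the role of length was not tested for them.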

How the data were processed

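ChIP-seq peaks came from 2 replicates of 1 group of embryos. Per the labels the assembly was dm6, and per the notes deposited with the files, 1 control alignment served all 3 called lists (replicate 1, replicate 2, pooled), from which the IDR list was made. No source used here names the peak caller, its settings or the read depth. The deposited lists give each peak a signal, a score of the authors' caller of unstated scale that was used only to rank peaks of the same list. Values of −log10 q, also deposited, are given for some peaks and set no limit on any count. Summits are the start plus the summit offset, 1-based. Genes came from Ensembl release 115 (BDGP6), without transposable elements, and sequence from the RefSeq release 6 assembly; every peak ended within its chromosomes. A summit was assigned to each gene whose span or 2 kb upstream holds it, and to a start site within 500 bp. Replicate summits were matched within 150 bp. Counts are set beside those of all protein-coding genes, with no test, because there is 1 group. Assignment was checked on planted summits. Members and lists were chosen with earlier results of these data known. Named genes are those with an IDR summit near their own start site, the 10 highest peaks, the co-receptors and carbon dioxide receptors, and up to 4 members of highest signal per role list; others are named for their position or extreme value. Python 3.11.15, numpy 2.4.6, pandas 2.3.3 and matplotlib 3.10.9 were used.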

Additional observations from a re-analysis of the deposited data

How the results depend on the processing

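No paired analysis was possible because there is 1 group. Receptor genes with an IDR summit in the window numbered 12 of 180. To leave 1 replicate out, the 7521 highest peaks of the other replicate were used. Of the 13 receptor summits so found in replicate 1, 12 had an IDR summit within 150 bp. Of the 13 in replicate 2, 9 did. The count of genes was 15 with any overlap of the peak, 12 with pseudogenes included, and 12 to 13 with 1 replicate left out. It moved to 0 with the gene body alone, 1 with 500 bp upstream and 32 with 5 kb (all protein-coding genes 49.5%), and to 6 in the 3760 highest IDR peaks (25.6%) and 33 in all pooled peaks (64.6%), by construction of these sets. Receptor genes with a summit within 500 bp of their own start site numbered 1. This became 0 at 250 bp, 5 at 1 kb and 13 in the pooled list, and ran from 0 to 2 with 1 replicate left out, with 0 without replicate 1, where the Gr63a peak ranks too low, and 2 without replicate 2. Summits at another gene's promoter numbered 7 of 12. They were 3 at 250 bp, 8 at 1 kb, 7 with protein-coding neighbours only, 25 of 57 in the pooled list and 5 to 7 of 13 with 1 replicate left out. For the window and the own start site, the share of receptor genes was below that of all protein-coding genes in each setting. Depth is unknown, so the lack of a peak in a window is a lack in these lists.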
